A study of Rattus norvegicus with 6 samples.

Results

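The guide strands rno-miR-10a-5p, rno-miR-10b-5p, rno-miR-196a-5p and rno-miR-196c-5p, named below without the species prefix rno, are made from genes that lie inside the Hox clusters, and their levels were examined in rat left ventricular myocardium after coronary ligation. They were chosen by name, as the non-control spots of the array that carry these 4 names, out of 758 miRNAs on the array, and all 4 were present and tested among 449. The MI group held 3 samples from male rats at 8 weeks of age, collected 24 h after the left coronary artery was tied off, so that the muscle it feeds loses its blood supply and dies (myocardial infarction, MI). The control group held 3 samples from male rats at 8 weeks of age that had the same operation without the ligation, and its labels carry a time of 0 h. Time since surgery and ligation therefore cannot be told apart. The labels do not say whether each sample came from a separate rat, and the p-values here cover only how far these particular samples differ among themselves. They also do not give where in the ventricle, relative to the infarct, tissue was taken.

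Hox genes are transcription factors that set position along the body axis, and in mammals they sit in clusters on separate chromosomes. MicroRNAs are short RNAs that pair with messenger RNAs, mainly through bases 2 to 8 from the 5′ end (the seed), and lower the output of their targets. The miR-10 and miR-196 genes are transcribed from within the clusters, and several Hox messenger RNAs are among their known targets: miR-196 directs cleavage of the Hoxb8 messenger RNA in mouse embryos, and miR-10b represses HOXD10 in human breast cancer cells. In human endothelial cells, miR-10a is known for restraining NF-kB activation.

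The sequences show how alike the members are, which matters for what a hybridization probe can separate. They are RefSeq entries of build GRCr8, printed 5′ to 3′ with the seed in capitals, and miR-196b-5p is shown as the remaining member of its family.
miR-10a-5p: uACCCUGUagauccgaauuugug
miR-10b-5p: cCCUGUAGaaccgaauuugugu
miR-196a-5p: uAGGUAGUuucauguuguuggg
miR-196b-5p: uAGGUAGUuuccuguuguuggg
miR-196c-5p: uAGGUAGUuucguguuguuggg
All 3 miR-196 guides share a seed, and miR-196a-5p differs from miR-196b-5p by A12C and from miR-196c-5p by A12G, counted from the 5′ end of miR-196a-5p. Over the 21 bases that miR-10a-5p and miR-10b-5p share, 20 are identical and the difference is U12A, counted from the 5′ end of miR-10a-5p. The RefSeq entry for miR-10b-5p starts 2 bases further in than that for miR-10a-5p, so the seeds as annotated are not the same. In the precursors, shown with both mature strands in capitals, the bases just before the annotated start of miR-10b-5p are UA, the bases with which miR-10a-5p begins. A start there would give miR-10b-5p the seed of miR-10a-5p; which start the RNA in these samples has was not measured.
Mir10a precursor: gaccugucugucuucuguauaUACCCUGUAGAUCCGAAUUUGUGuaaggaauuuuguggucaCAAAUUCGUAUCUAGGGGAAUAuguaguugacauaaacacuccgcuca
Mir10b precursor: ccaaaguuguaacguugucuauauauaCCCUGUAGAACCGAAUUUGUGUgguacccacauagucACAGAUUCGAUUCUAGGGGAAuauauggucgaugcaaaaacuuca

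In GRCr8, miR-10a-5p lies at chr10:81779730-81779752 on the plus strand, and its gene sits between Hoxb5 and Hoxb4. MiR-196c-5p lies at chr10:81727561-81727582 on the plus strand, in the same Hoxb cluster, between Hoxb13 and Hoxb9. MiR-10b-5p lies at chr3:80035886-80035907 on the plus strand, inside the annotated Hoxd4 gene with Hoxd8 and Hoxd3 on its sides, and miR-196a-5p at chr7:135988900-135988921 on the plus strand, between Hoxc10 and Hoxc9. None of the genes but Mir10b lies inside an annotated protein-coding gene. The array design names an older build, rn4, and the coordinates here are those of the RefSeq entries, matched by name.

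The 6 arrays detected between 446 and 472 miRNAs each, a miRNA being detected where any of its probes had over 50% of its spots well above background. All 6 cardiomyocyte marker miRNAs, such as miR-1-3p and miR-133a-3p, were detected on every array, as were miR-126a-3p of endothelium and miR-143-3p and miR-145-5p of smooth muscle. The scanner headers put MI replicates 2 and 3 under one barcode code and MI replicate 1 with the 3 control arrays under another, and control replicate 3 had a scan of its own. Signals are scaled intensities in arbitrary units, comparable between arrays for 1 miRNA but not between miRNAs, since probes differ in how well they bind.

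No member of the group changed past the threshold 24 h after ligation, and for each of the 4 the MI and control arrays overlapped. On the log2 scale miR-10b-5p stood lowest relative to control, at -0.42 ± 0.18 (SE, n = 3 per group), followed by miR-196c-5p at -0.35 ± 0.38 and miR-10a-5p at -0.24 ± 0.19, while miR-196a-5p stood at 0.05 ± 0.25. By limma, with Benjamini-Hochberg adjustment across all 449 miRNAs tested, 0 of the 4 were called at an adjusted p under 0.05, against a background of 2.45% of all tested miRNAs (1.78% higher and 0.668% lower). At an unadjusted p under 0.05 it was again 0 of the 4, against 13.6% of the tested miRNAs, or 5.12% in the lower direction. Groups that do not overlap were found for 0 of the 4, against 20.7% of the tested miRNAs. The median log2 fold change of the 4 was -0.29, and that of all tested miRNAs was 0.02. Below 0 lay 3 of the 4 members and 45.2% of the tested miRNAs. In bulk tissue, fewer cells of a type and less RNA per cell cannot be told apart.

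**Figure D1:**
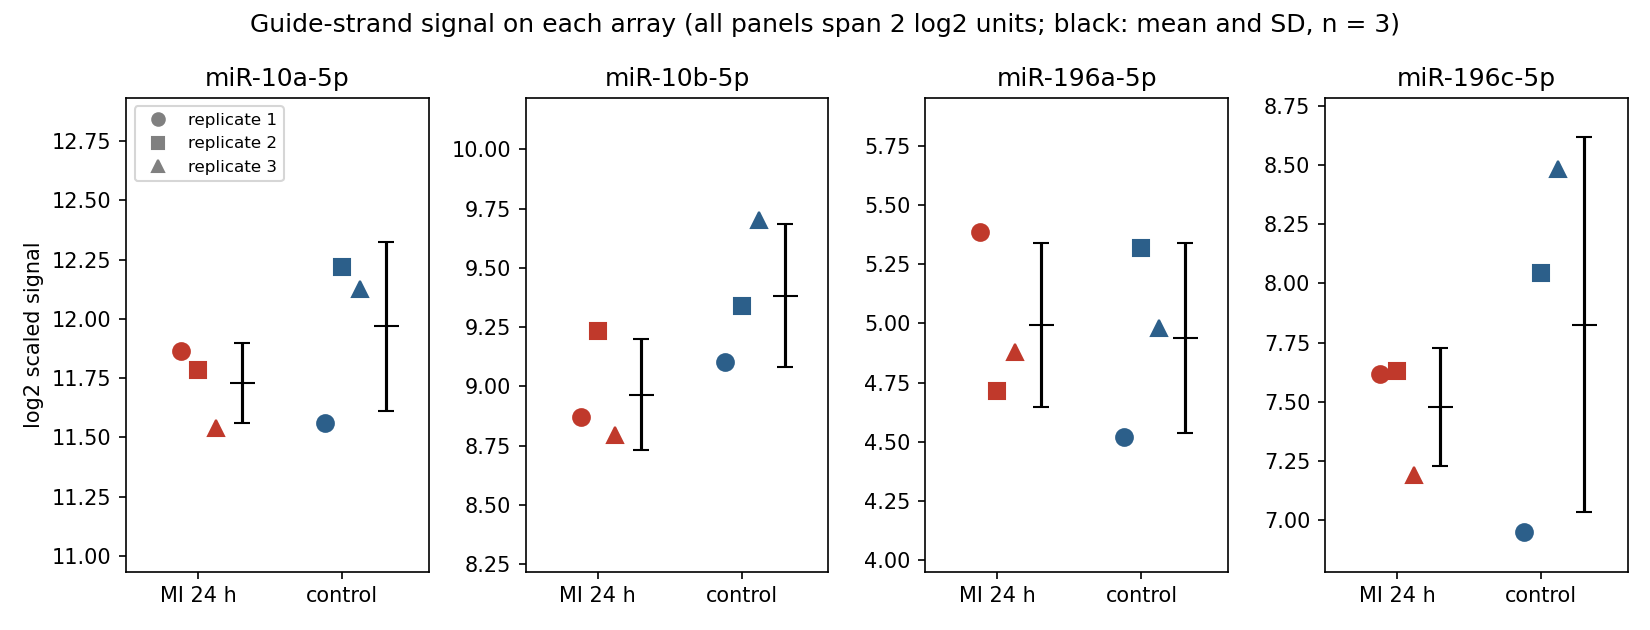
Log2 scaled signal (vertical axis, arbitrary units) of miR-10a-5p, miR-10b-5p, miR-196a-5p and miR-196c-5p on the 3 MI arrays (red) and the 3 control arrays (blue); the symbol gives the replicate, and the black bars give the mean and SD (n = 3). In every panel the MI and control arrays overlap, and control replicate 1 is the lowest control array.

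For rno-miR-10b-5p, the miRNA within Hoxd4, the arrays had scaled signals of 468, 602 and 444 in MI replicates 1 to 3, against 550.3, 649 and 833 in control replicates 1 to 3. MI replicates 1 and 3 lay below every control array, and MI replicate 2 lay between control replicates 1 and 2. The mean log2 signal was 8.97 ± 0.23 after MI and 9.38 ± 0.30 in controls (SD, n = 3 each). The fold change of 0.749 had a 95% interval from 0.553 to 1.02 (limma adjusted p = 0.383), which includes 1 at its upper end. Both of its probes were well above background on all 6 arrays and stood at -0.46 and -0.40 on their own.

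For rno-miR-10a-5p, from the Hoxb cluster, they had scaled signals of 3733, 3525 and 2978 in MI replicates 1 to 3, against 3020, 4764 and 4467 in control replicates 1 to 3. All 3 MI arrays lay below control replicates 2 and 3, but control replicate 1 stood below MI replicates 1 and 2. The mean log2 signal was 11.73 ± 0.17 after MI and 11.97 ± 0.36 in controls (SD, n = 3 each). Its fold change was 0.848, with a 95% interval from 0.620 to 1.16 (limma adjusted p = 0.621). Its 2 probes stood at -0.22 and -0.25.

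For rno-miR-196c-5p, also from the Hoxb cluster, they had scaled signals of 196, 198 and 146 in MI replicates 1 to 3, against 124, 264 and 358 in control replicates 1 to 3. The MI arrays lay close together and all fell between the lowest and the middle control array. Among MI arrays the highest signal was 1.35 times the lowest, and among controls 2.90 times. The fold change was 0.787, with a 95% interval from 0.418 to 1.48 (limma adjusted p = 0.715), and all 4 of its probes stood below 0, between -0.42 and -0.28. It had the widest interval of the 4 guides.

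The Hoxc miRNA rno-miR-196a-5p was closer to background: its probes averaged between 11.9 and 20.8 units before scaling on the 6 arrays, where the negative control spots had SDs between 1.91 and 3.36 units. Its scaled signals were 41.7, 26.3 and 29.5 in MI replicates 1 to 3, against 22.9, 39.9 and 31.5 in control replicates 1 to 3. The groups were fully interleaved, with MI replicate 1 the highest array and control replicate 1 the lowest. The fold change of 1.04 had a 95% interval from 0.688 to 1.57 (limma adjusted p = 0.934). Its direction was not fixed by the data: it stood at -0.02, -0.04, -0.01 and -0.01 on the log2 scale with the 75th percentile over all probes, the median, quantile normalization and no scaling.

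**Figure D2:**
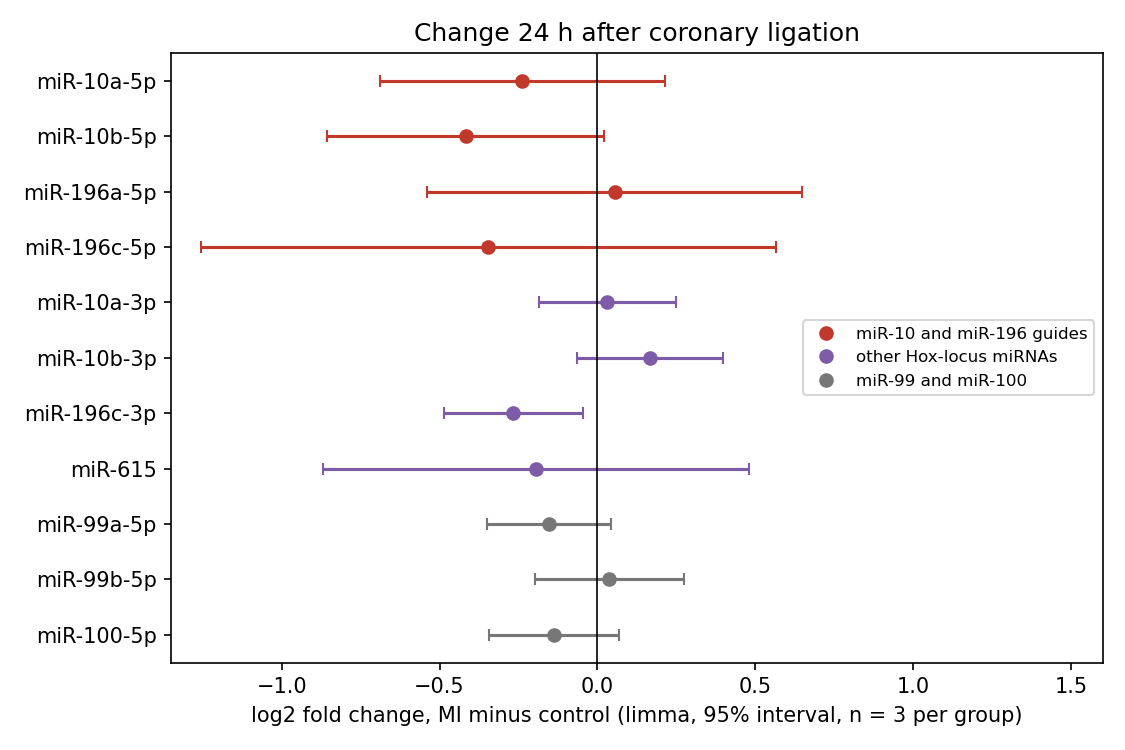
Log2 fold change, MI minus control (horizontal axis), with the 95% interval from limma (n = 3 per group), for the 4 guides (red), the other tested miRNAs of the Hox clusters (purple) and the sequence relatives miR-99 and miR-100 (grey). The intervals of the 4 guides all include 0 and are wider than those of the 3 partner strands; the interval of miR-196c-3p lies below 0 before adjustment for multiple tests.

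The guides varied widely between replicates of a group, most of all among the controls. Among the MI arrays the SDs of miR-196c-5p, miR-196a-5p, miR-10a-5p and miR-10b-5p on the log2 scale were 0.25, 0.35, 0.17 and 0.23, at ranks 79, 43, 137 and 85 of the 449 tested miRNAs, where the median SD was 0.12. Among the control arrays miR-196c-5p came 4th with an SD of 0.79, miR-196a-5p 23rd with 0.40, miR-10a-5p 28th with 0.36 and miR-10b-5p 41st with 0.30, where the median was again 0.12. Such spread was not particular to the guides. Among the controls miR-615, close to background, came 17th with 0.47, miR-208b-3p 18th with 0.47 and miR-144-3p 36th with 0.32. The control arrays span 2 scans, and the MI arrays span 2 barcode codes. The ranks are a description over 3 arrays a group, and a difference in spread between MI and control was not tested.

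**Figure D3:**
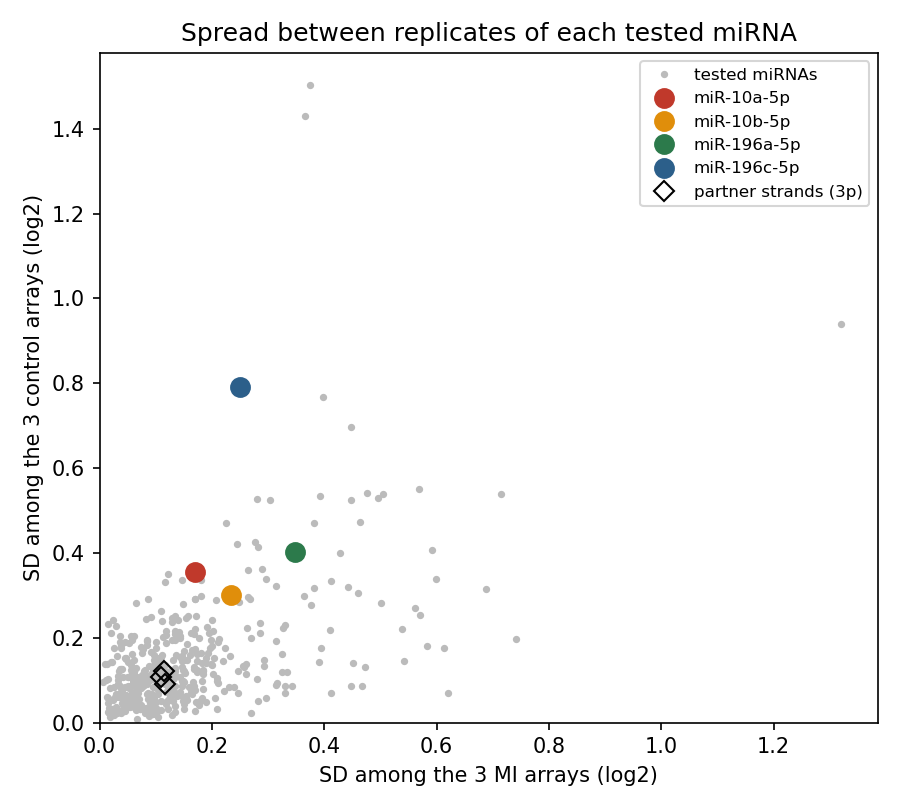
SD of the log2 signal among the 3 MI arrays (horizontal axis) against the SD among the 3 control arrays (vertical axis) for the 449 tested miRNAs (grey), the 4 guides (coloured) and the partner strands miR-10a-3p, miR-10b-3p and miR-196c-3p (open diamonds). The guides lie above most tested miRNAs on the control axis, with miR-196c-5p at 0.79, and the partner strands lie near the median of 0.12.

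The spread between arrays was larger than the error of reading the spots. Each probe of miR-10a-5p, miR-10b-5p and miR-196a-5p kept 5 to 8 spots on each array, and each probe of miR-196c-5p kept 4. From these, the standard error of the summed signal was at most 1.63% for miR-10a-5p, 2.57% for miR-10b-5p, 3.80% for miR-196a-5p and 3.69% for miR-196c-5p on any array, the last being 0.05 on the log2 scale. Different probes of 1 miRNA also followed each other across arrays. The 4 probes of miR-196c-5p had control SDs between 0.71 and 0.87, and in each of them control replicate 1 was the lowest and control replicate 3 the highest of the 6 arrays. Spot error does not cover differences between RNA preparations, labelling or hybridizations, which the files do not separate from differences between animals.

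**Figure D4:**
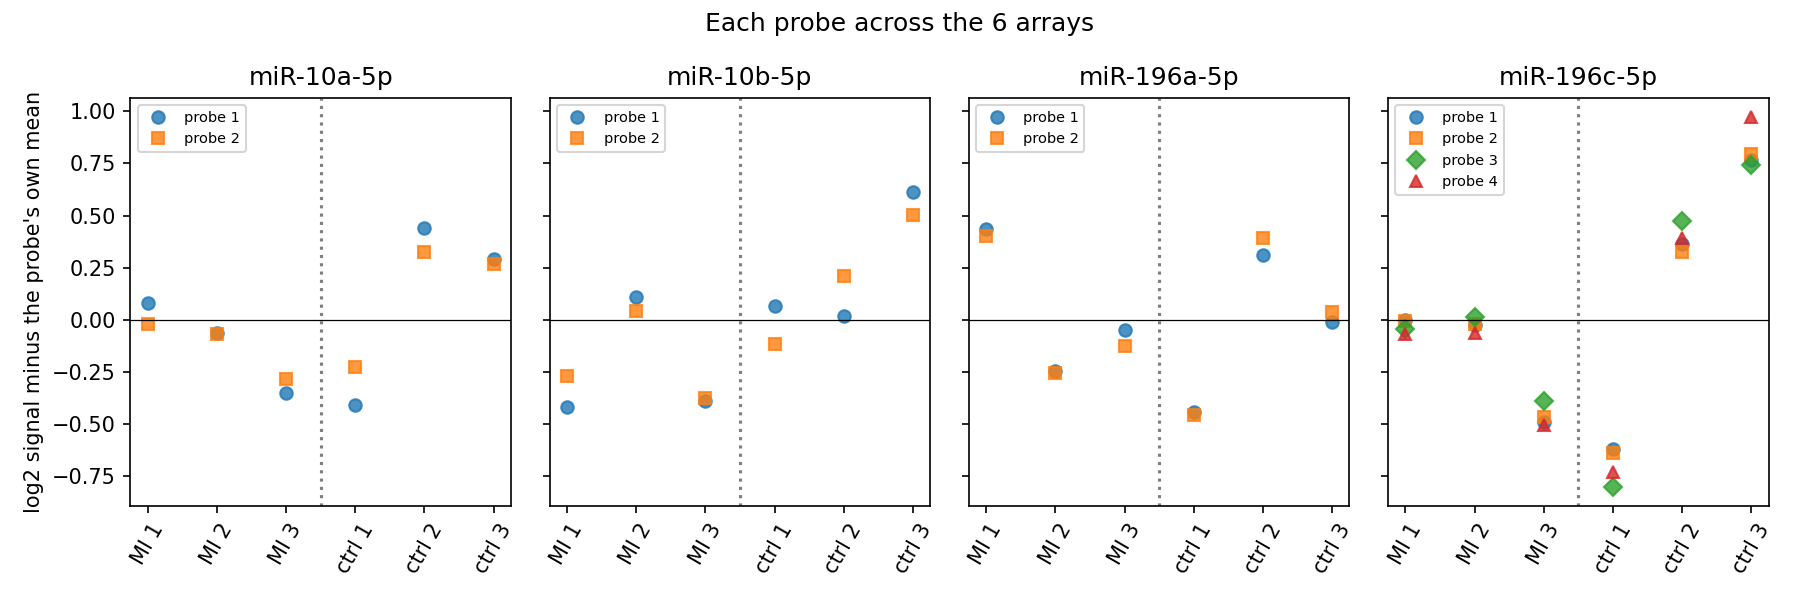
Log2 signal of each probe minus that probe's mean over the 6 arrays (vertical axis), for the 3 MI arrays left of the dotted line and the 3 control arrays right of it; each symbol is 1 probe. Probes of the same miRNA move together, and the widest swing is that of miR-196c-5p between control replicates 1 and 3.

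The arrays were not ordered the same way for every guide. Control replicate 1 was the lowest control array for all 4, and control replicates 2 and 3 were the highest arrays of all for miR-10a-5p, miR-10b-5p and miR-196c-5p. For miR-196a-5p the highest array was MI replicate 1. MiR-196a-5p and miR-196c-5p differ by a single base, and how far their probes bind both was not tested; on the array where miR-196c-5p was highest, control replicate 3, miR-196a-5p was below MI replicate 1 and control replicate 2. The other tested miRNA whose log2 signal over the 6 arrays was most like that of miR-10a-5p was miR-151-5p (Pearson r = 0.992), followed by miR-196c-5p (0.919) and miR-423-5p (0.901). For miR-196c-5p they were miR-151-5p (0.929), miR-652-3p (0.927) and miR-10a-5p (0.919), for miR-10b-5p miR-3558-3p (0.972), miR-652-3p (0.959) and miR-363-3p (0.951), and for miR-196a-5p miR-137-5p (0.898), miR-2985 (0.863) and miR-3580-3p (0.832). These are the 3 highest of 432 comparisons each over the same 6 arrays, which share their scaling, and they are given as a description with no test. These rankings depended on the processing and on the samples kept. Over 18 other settings, miR-137-5p was among the 3 most like miR-196a-5p in 17 and miR-151-5p among those of miR-10a-5p in 16, but miR-2985 was among those of miR-196a-5p in 7, with r between 0.036 and 0.970, and miR-3580-3p in 5. MiR-363-3p was among those of miR-10b-5p in 5 and miR-151-5p among those of miR-196c-5p in 7. MiR-10a-5p and miR-196c-5p had r between 0.869 and 0.970 in these settings, and each was among the 3 most like the other in 12 or 13.

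The partner strands, cut from the other arm of the same precursors, had smaller SDs, a difference that was not tested. Scaled signals of miR-10a-3p were 560.4, 483 and 491 in MI replicates 1 to 3, against 504, 529 and 466 in control replicates 1 to 3, a log2 fold change of 0.03 ± 0.09 (SE, n = 3 per group) which fell below 0 with the 75th percentile over all probes, the median, quantile normalization and no scaling. MiR-10b-3p had 262, 225 and 255 in MI replicates 1 to 3, against 240.5, 217 and 204 in control replicates 1 to 3, a log2 fold change of 0.17 ± 0.10, so the 2 strands of Mir10b lay on opposite sides of 0. The SDs of miR-10a-3p and miR-10b-3p among controls were 0.09 and 0.12, where their guides had 0.36 and 0.30.

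MiR-196c-3p had signals of 62.5, 71.4 and 71.1 in MI replicates 1 to 3, against 83.3, 87.5 and 75.6 in control replicates 1 to 3. Every MI array lay below every control array, a separation that 9.8% of the tested miRNAs showed in this direction, and the log2 fold change was -0.27 ± 0.09. It was not called in limma after adjustment over all miRNAs (adjusted p = 0.268). Over the 25 alternatives it stood below 0, between -0.39 with the header code as a block and -0.06 with the normexp background correction. That correction was run with an added offset of 50. It was called in 0 of the 25, with limma adjusted p from 0.0896 to 0.679. Its precursor is printed with both mature strands in capitals, since its strands differed in spread: the control SD was 0.11 for the 3p strand and 0.79 for the guide.
Mir196c precursor: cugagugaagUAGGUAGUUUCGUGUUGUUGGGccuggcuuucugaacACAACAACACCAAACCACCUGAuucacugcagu

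Whether pairs of these miRNAs changed by different amounts was tested on their within-array log2 difference with a two-sided exact permutation test, adjusted over 5 pairs; this test of 3 samples against 3 can give no p below 0.1. MiR-10b-5p shifted relative to miR-10a-5p by -0.18 (exact p = 0.5; adjusted p = 0.625), a value that ran from -0.32 without control replicate 2 to -0.063 without MI replicate 1. MiR-196c-5p shifted relative to miR-196a-5p by -0.40 (exact p = 0.4; adjusted p = 0.625). The guide relative to its partner strand shifted by -0.58 for Mir10b (exact p = 0.2; adjusted p = 0.625), -0.27 for Mir10a (exact p = 0.4; adjusted p = 0.625) and -0.08 for Mir196c (exact p = 0.9; adjusted p = 0.9). With 3 samples a group none of the 5 could have passed the threshold, whatever the size of the difference. The shift for Mir10b came from within-array differences with SDs of 0.35 after MI and 0.42 in controls. The pairs other than miR-10b-5p with miR-10a-5p were chosen after the values were seen.

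The remaining miRNAs of the Hox clusters were at or near background. MiR-196b-5p, from between Hoxa9 and Hoxa10, was detected on 2 MI and 2 control arrays and so was not tested; its signals were 19.3, 16.8 and 19.7 in MI replicates 1 to 3, against 17.9, 20.5 and 18.4 in control replicates 1 to 3. MiR-615, whose gene lies inside the annotated Hoxc6 and Hoxc5, had 1 of its 4 probes above background on every array, and that probe stood at -0.040 on the log2 scale. The sum over all 4, which adds 3 probes at background, stood at -0.19 ± 0.28. MiR-196a-3p and miR-196b-3p were detected on 0 of the 6 arrays. Of the 9 names on the list of other Hox-locus miRNAs, 7 were on the array and 4 were tested. Of these 4, 0 rose and 0 fell at an adjusted p under 0.05, against 1.78% and 0.668% of all tested miRNAs. Their median log2 fold change was -0.08.

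MiR-99 and miR-100 belong to the same ancient family as miR-10 but come from outside the Hox clusters. The RefSeq entry of miR-100-5p shows the likeness, with its seed in capitals.
miR-100-5p: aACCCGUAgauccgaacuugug
Aligned to miR-10a-5p with a shift of 1 base, it shares 22 positions with it, of which 19 are identical. The annotated seeds of miR-100-5p and miR-10a-5p are not the same. The log2 fold changes of miR-99a-5p, miR-100-5p and miR-99b-5p were -0.15 ± 0.08, -0.14 ± 0.09 and 0.04 ± 0.10 (SE, n = 3 per group). Of these 0 of 3 were called, against 2.45% of all tested miRNAs, and their control SDs were 0.09, 0.11 and 0.16. For miR-99a-5p every MI array lay below every control array, as for 9.8% of the tested miRNAs. Of the 25 alternatives, miR-99a-5p passed the threshold with the authors' processed values only, at -0.34 (limma adjusted p = 0.0130, where the alternatives ran up to 0.757), and miR-99b-5p fell below 0 under the same scalings as miR-10a-3p. In the authors' values the SE of miR-99a-5p was 0.035, against 0.08 above, and miR-1-3p had the same SE there. This p therefore rests on an unusually small spread in values whose processing steps are not given.

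The value of each guide depended on which arrays were kept. Without control replicate 1 the log2 fold changes were -0.78 for miR-196c-5p, -0.56 for miR-10b-5p, -0.44 for miR-10a-5p and -0.16 for miR-196a-5p, with limma adjusted p of 0.168, 0.306, 0.221 and 0.774. Without control replicate 2 they were -0.24, -0.44, -0.11 and 0.24. Without control replicate 3, the array with its own scan, they were -0.02, -0.26, -0.16 and 0.08, which are also the values within the scan that the other 5 arrays shared. Without MI replicate 3, miR-10a-5p stood at -0.14 and miR-196c-5p at -0.20, and miR-196a-5p stood at -0.14 without MI replicate 1 and at 0.19 and 0.11 without MI replicates 2 and 3. With the header code as a block, a fit that rests on MI replicate 1 against the 3 controls, the values of miR-196c-5p, miR-10b-5p, miR-10a-5p and miR-196a-5p were -0.21, -0.51, -0.10 and 0.44. In all of these fits 0 of the 4 were called.

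**Figure D5:**
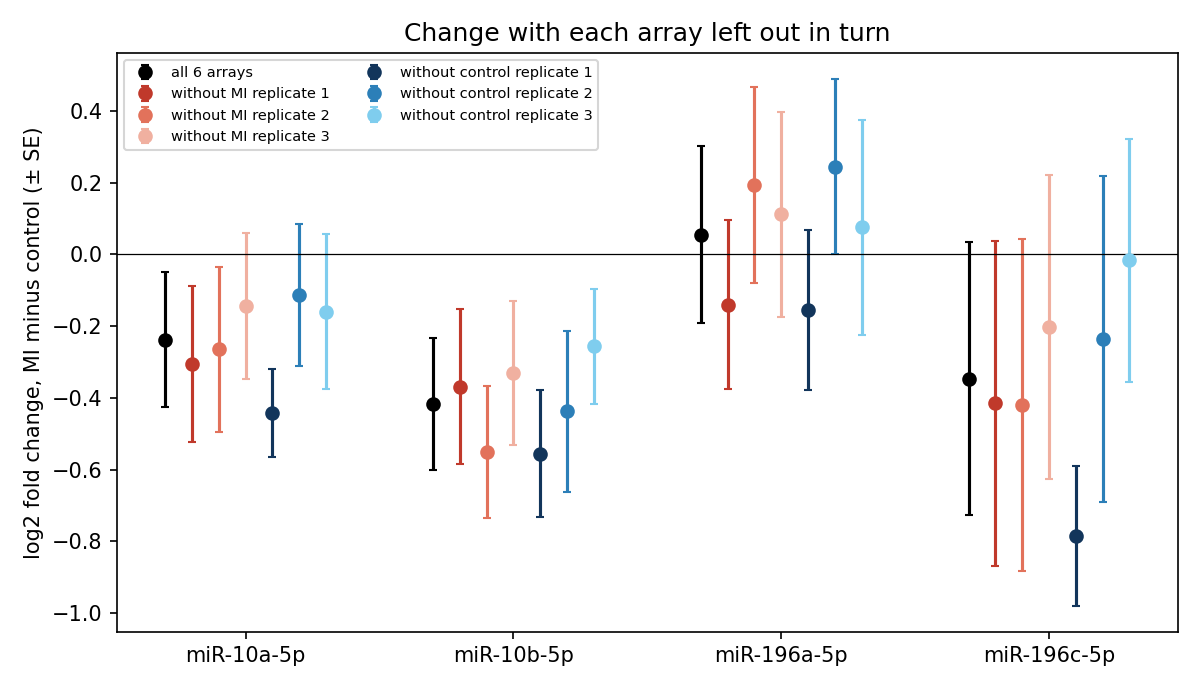
Log2 fold change, MI minus control (vertical axis, with SE from limma), of the 4 guides with all 6 arrays (black), without each MI array (reds) and without each control array (blues). MiR-10a-5p, miR-10b-5p and miR-196c-5p stay below 0 in all 6 fits, miR-196c-5p moves between -0.78 and -0.02, and miR-196a-5p falls on both sides of 0.

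Marker miRNAs of the cells a ventricle holds were read on the same arrays. The summed signal of 8 smooth muscle and fibroblast markers lay between 15.97 and 16.03 on the log2 scale after MI and between 15.99 and 16.23 in controls, and that of 2 endothelial markers between 16.18 and 16.19 after MI and between 16.22 and 16.42 in controls. Of these lists 0 of 7 and 0 of 2 tested members were called, with median log2 fold changes of -0.03 and -0.15. Among all tested miRNAs 2.45% were called, the share to set beside each count of called markers here. Most of the endothelial sum came from miR-126a-3p, at -0.14. Over the 25 alternatives miR-126a-3p stood between -0.23, with the median scaling, and -0.01, with quantile normalization. The 6 cardiomyocyte markers summed to between 18.55 and 18.64 after MI and between 18.48 and 18.71 in controls. Of these 0 of 6 were called. Most of this sum came from miR-133b-3p and miR-1-3p, at 0.01 and -0.02. MiR-208a-3p stood at -0.21 (limma adjusted p = 0.335), with every MI array below every control array. Among all tested miRNAs, 9.8% separated in this direction. MiR-208b-3p, miR-499-5p and miR-133a-3p stood at 0.22, -0.07 and -0.10. The 5 leukocyte markers summed to between 14.00 and 14.45 after MI and between 13.88 and 14.07 in controls. Of these 0 of 5 were called. MiR-223-3p of myeloid cells stood at 1.45 ± 0.29 (limma adjusted p = 0.0619, over its alternatives 0.00256 to 0.241). Of the rest, miR-142-3p, miR-155-5p and miR-142-5p stood at 0.21, 0.19 and 0.06. MiR-150-5p went the other way, at -0.21, with every MI array below every control array. The groups also did not overlap for miR-223-3p, higher after MI, and for miR-126a-3p, lower after MI. Among all tested miRNAs 20.7% separated, in either direction. The 2 erythroid markers, with miR-451-5p at 0.36 ± 0.18, summed to between 14.50 and 15.00 after MI and between 14.17 and 14.68 in controls. MiR-223-3p passed the threshold without MI replicate 1 and with limma's trend and robust options (adjusted p = 0.0448), and it stood at 0.76 once the header code was blocked. MiR-451-5p stood at 0.22 without MI replicate 3 and at 0.17 with that block. On control replicate 1, where all 4 guides were the lowest of the controls, the smooth muscle and fibroblast sum was the highest of the 6 arrays. Most of that sum came from miR-143-3p, at 57383 units on control replicate 1, against 12987 for miR-199a-3p. The members of that list differed. Both strands of miR-143 and of miR-145 were highest on control replicate 1, but miR-199a-3p, miR-199a-5p and miR-214-3p were highest on MI replicate 3. MiR-214-5p was at the floor on every array. The part of cell makeup in the values of the guides was not tested.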

How the data were processed

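Total RNA of 6 myocardium samples was labelled with Cyanine 3 and hybridized to single-colour Agilent rat miRNA arrays, and the submitters' processing notes name Agilent Feature Extraction, version 11.0.1.1, as the software that read the spots. The authors deposited a linear intensity for each spot, background-subtracted in the processed signal, with flags (0 or 1) for outlier, well-above-background and detected spots, per the file headers. The authors also deposited a log2 value per miRNA, with a direction and centring that are not stated; the steps behind them are not given in the sources used here.

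Outlier spots were left out (8.32% to 9.63% per array) and no spot was saturated. Spots were averaged per probe, each array divided by its own 75th percentile over those 885 probes that every array detected, probes summed per miRNA, floored at 5.14 and put on a log2 scale. A miRNA was tested if all 3 arrays of MI, of control or of both detected it (449) with limma 3.58.1 in R 4.3.3 (lmFit, eBayes, group only), Benjamini-Hochberg adjustment over all tested and a threshold of 0.05. With 3 arrays a group, precision is limited by their number. The same steps were run on simulated probe signals whose spreads were drawn from all tested miRNAs. That run does not show what changes could be found at the spread of the guides. Members and lists were chosen with earlier results of these data known. Named miRNAs are the members, the other Hox-locus miRNAs, miR-99 and miR-100, the 3 miRNAs most like each member by Pearson r, and 7 markers. RefSeq held a sequence for 4 of the 4 members. The exact test used scipy 1.17.1. Alternatives covered scaling, probe summary, background, filter, floor, blocks and each sample left out.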

Additional observations from a re-analysis of the deposited data

How the results depend on the processing

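Under 25 alternatives, 6 of which left out 1 sample, none of the 4 guides was called in limma. MiR-10a-5p, miR-10b-5p and miR-196c-5p stood below 0 in all 25, between -0.44 and -0.10, -0.56 and -0.26, and -0.78 and -0.02. The count of called miRNAs, 11 with 8 higher and 3 lower, was 7 without scaling, 5 without the filter, 6 with a floor 4 times as high, 3 with the header code as a block, 5 with the scan as a block and 4 to 10 with 1 sample left out: 4 without MI replicate 2, 8 without MI replicate 1, 10 without MI replicate 3 and 5 without any 1 of the controls. It split into 5 higher and 5 lower with the 75th percentile over all probes and with the median, 6 and 1 without scaling, and 5 and 3 in the authors' processed values. The cause was not tested.

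The replicate numbers showed no strong pairing of the samples: deviations from the group means correlated at 0.12, -0.04 and 0.11 for numbers 1, 2 and 3. These values cannot exclude a weaker pairing. With the replicate block 3 miRNAs were called, and none of the 4 guides.

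Some values changed sign. With the 75th percentile over all probes, the median, quantile normalization, no scaling, the software's total signal and the authors' processed values, miR-196a-5p was -0.020, -0.037, -0.0086, -0.014, -0.026 and -0.019, miR-10a-3p -0.043, -0.060, -0.047, -0.037, -0.048 and -0.056, and miR-99b-5p -0.037, -0.054, -0.0050, -0.031, -0.042 and -0.026. MiR-10a-3p was also -0.017 with the scan block, miR-615 was 0.75 in the authors' processed values and 0.058 with normexp, and miR-1-3p was 0.052 with the header code block. With 1 sample left out, miR-196a-5p ran from -0.16 to 0.24, miR-10a-3p from -0.035 to 0.074, miR-615 from -0.43 to 0.040, miR-99b-5p from -0.032 to 0.13 and miR-1-3p from -0.073 to 0.044. The cause of these turns was not tested. The other scalings moved the median of all tested miRNAs by between -0.09 and -0.02. The signals of miR-196a-5p, miR-196b-5p and miR-615 were close to background, and what part this had in their values was not tested.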
